A study of Mus musculus with 3 samples.

Results

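Actg2-positive smooth muscle cells were picked from the GFP-negative library of newborn mouse sinoatrial node cells, where 507 of 3036 cells met the rule (16.7%, 95% Clopper-Pearson interval 15.4% to 18.1%). The 3 libraries of the series held 7633 cells in all. A cell needed at least 500 genes, at least 3 UMIs of Actg2, at least 10 UMIs of Acta2 and Tagln together, and fewer than 4 UMIs of Pecam1 and Cdh5 together. UMIs are the molecules counted per gene and cell. Of 534 cells with enough Actg2, 23 lacked the Acta2 and Tagln UMIs and 5 had too many endothelial UMIs, 1 of them failing on both. The 507 cells were set against 428 other contractile cells of the same library, which had at least 20 UMIs of Acta2, Tagln and Myh11 together and fewer than 3 of Actg2, and against all 2529 other cells.

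All animals were ICR mice at postnatal day 2 with the genotype HCN4H2BGFP, in which the locus of the pacemaker channel HCN4 drives a nuclear GFP. Cells of the GFP-negative library were sorted by flow cytometry as HCN4-GFP-negative, those of the GFP-positive library as HCN4-GFP-positive, and those of the RA library were unsorted. The title of that last library reads RA while its tissue is also given as sinoatrial node region, so its origin is uncertain and it is called RA here. Each group was 1 10x Genomics library from an unstated number of animals, so no value has a replicate error and no test between groups was possible.

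Smooth muscle cells shorten when calcium and calmodulin switch on myosin light chain kinase, which lets myosin pull on actin filaments. Actg2 encodes the gamma actin typical of smooth muscle in the gut, bladder and other hollow organs, while the smooth muscle of most arteries relies mainly on the alpha actin of Acta2. In muscle of both kinds, the factors Srf and myocardin switch on contractile genes through a DNA element called the CArG box.

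The 3 libraries held 38204709 UMIs (GFP-negative), 50416748 UMIs (GFP-positive) and 19975326 UMIs (RA). The median depth was 13105 UMIs in the Actg2-positive cells, 13649.5 in the other contractile cells and 10977 in all other cells. Mitochondrial transcripts exceeded 10% in 19 Actg2-positive and 17 other contractile cells, and haemoglobin made up 0.881% of the UMIs of the Actg2-positive cells, 0.656% in the other contractile cells and 5.83% in all other cells. The GFP-negative library shared 19 cell barcodes with the GFP-positive library and 9 with RA, of which 2 and 1 belonged to Actg2-positive cells. The reporter feature GFP had 0 UMIs in the 507 cells, which allows a share of cells with a GFP UMI of up to 0.592%, and 19 UMIs in 17 of the other cells (0.672%). In the GFP-positive library, 37.05% of the 3293 cells outside the rule had a GFP UMI, so this limit is not one on cells that carry the reporter protein.

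Actg2 itself ranged from 3 to 212 UMIs per Actg2-positive cell, with a median of 11. In the other contractile cells, 210 had none, 155 had 1 and 63 had 2 UMIs. Leukocytes should not make Actg2, and they served as a guide to the level of free RNA. They were defined by at least 10 UMIs of 5 leukocyte genes. They also had fewer than 10 UMIs of Acta2 and Tagln together, and fewer than 4 of Pecam1 and Cdh5 together. The limit on Acta2 and Tagln leaves out leukocytes rich in smooth muscle RNA, so their low Actg2 is partly built in. Of 161 leukocytes, 34 had 1 UMI, 3 had 2 and none had 3 or more, at a median depth of 8468 UMIs. A limit of 3 UMIs therefore lay above every one of these leukocytes in raw UMIs. Scaled to depth the ranges overlapped, with up to 5.53 Actg2 UMIs per 10000 in a leukocyte and a lower quartile of 5.10 in Actg2-positive cells. Thinned to 5000 UMIs per cell, Actg2 was read in 21.6% of other contractile cells (17.7% to 26.0%) and 10.4% of leukocytes (5.79% to 16.8%). The share in other contractile cells thus lay above that of these leukocytes at equal depth.

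The summed level of Actg2 was 1266 CPM (1240.1 to 1293) in Actg2-positive cells, 46.1 CPM (40.8 to 51.8) in other contractile cells and 33.98 CPM (31.9 to 36.2) in all other cells. CPM are counts-per-million values of the UMIs summed over the cells of a group, and the brackets hold 95% exact Poisson intervals, which cover counting error only. The other genes of the rule followed the choice of cells. Acta2 stood at 6532 CPM in Actg2-positive cells, 2812 CPM in other contractile cells and 792 CPM in all other cells. Tagln, an actin-binding protein of smooth muscle, stood at 3519.8, 1325 and 359.6 CPM in the same order of groups. Smooth muscle myosin, Myh11, was not used to pick the Actg2-positive cells but did help to pick the other contractile cells. It reached 194 CPM against 49.0 and 17.4 CPM, and was read in 66.3% of Actg2-positive, 29.2% of other contractile and 11.5% of all other cells.

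Since the cells were chosen from these counts, every value of the GFP-negative library is a description of chosen cells. At the edge of the rule, the 49 cells with exactly 3 Actg2 UMIs had 2910 CPM of Acta2, 57.8 CPM of Cnn1, 151 CPM of Igfbp2 and 207 CPM of Figf. The 86 cells with exactly 2, which otherwise met the rule, had 2321 CPM of Acta2, 86.1 CPM of Cnn1, 120 CPM of Igfbp2 and 197 CPM of Figf. The cells on either side of the limit were thus close in Igfbp2 and Figf, with Acta2 higher inside the limit and Cnn1 higher outside it. Farther inside, Cnn1, which encodes the actin-binding calponin, was at 399.5 CPM in the 136 cells with 20 or more Actg2 UMIs, 205 CPM in the 247 cells with 6 to 19 and 102 CPM in the 124 cells with 3 to 5. Igfbp2 followed the same order at 997.5, 354 and 142 CPM, and the collagen gene Col3a1 the reverse order at 2606, 4245 and 4798 CPM.

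The label was checked against marker sets without the genes that chose the cells, since cells picked by Acta2, Tagln, Pecam1 and Cdh5 had to differ in these. Of 11 smooth muscle markers, 8 had no part in the choice (Acta2, Tagln and Myh11 were left out). They summed to 4925 CPM in Actg2-positive cells, 2208 CPM in other contractile cells, 969 CPM in all other cells and 169 CPM in leukocytes. None of the 8 was at 0 in any of these groups, leukocytes included. Leukocytes with 10 or more UMIs of Acta2 and Tagln had been left out, so the leukocyte sum is partly built in. The 5 endothelial markers other than Pecam1 and Cdh5 summed to 16.7 CPM in Actg2-positive and 18.5 CPM in other contractile cells, against 204 CPM in all other cells. Cells with many endothelial UMIs had been left out of the Actg2-positive cells, so this low sum is partly built in. Cardiomyocyte markers summed to 192 CPM, below the 224 CPM of leukocytes, and airway epithelial markers to 0.288 CPM with Scgb3a2, Epcam and Krt8 at 0. The cells were not free of markers of related types. Pericyte markers reached 2217 CPM against 1426 CPM in other contractile and 607 CPM in all other cells. Rgs5 alone made up most of this sum in Actg2-positive and in other contractile cells. None of the 7 measured pericyte markers was at least 2-fold higher than in other contractile cells, and Higd1b was at least 2-fold lower. Fibroblast markers reached 15350 CPM against 17992 and 21216 CPM, while leukocytes had 2140 CPM. Actg2-positive cells thus carried smooth muscle genes on top of collagen genes at a level above the free RNA seen in leukocytes. Whether doublets took part in this was not tested.

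Since the CArG box is known from promoters of smooth muscle genes, promoters that hold it are shown. It consists of a pair of C, a run of A and T only, and a pair of G, and reads alike on both strands. RefSeq promoter windows of 250 bases before and 50 after each start (build GRCm38.p6, which differs from the mm9 of the counts) were looked up for 32 genes, namely the 28 of the contractile list with Actg2, Acta2, Tagln and Myh11. Windows were found for 26 of them. Actg2, Tagln and Myh11 had no window, so they were not searched for the element. Some genes have more than 1 start, and of the 32 windows of the 26 genes, 5 held the element (15.6%), against 535 of 32851 windows of all genes (1.63%). Ldb3 gave 2 of the 5, overlapping windows that share 1 box, so the element was found in 4 genes. Only the exact form was searched, within these short windows. A gene without a match may thus still hold a box with another letter in the run, or one farther away. The bases before the start are given for 3 genes whose proteins form the motor and its anchor, with the CArG box in capitals. Myl9, the regulatory light chain of smooth muscle myosin, has its box at base -161 (chr2:156775214-156775463, plus strand), Myl6, the essential light chain, at base -50 (chr10:128493010-128493259, minus strand), and Vcl, vinculin of the adhesion sites, at base -227 (chr14:20929148-20929397, plus strand).
Myl9: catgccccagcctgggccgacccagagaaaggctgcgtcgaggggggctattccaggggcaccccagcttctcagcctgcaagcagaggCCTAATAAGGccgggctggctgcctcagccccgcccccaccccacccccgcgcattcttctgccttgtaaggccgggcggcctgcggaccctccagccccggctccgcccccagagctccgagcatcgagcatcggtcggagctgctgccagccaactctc
Myl6: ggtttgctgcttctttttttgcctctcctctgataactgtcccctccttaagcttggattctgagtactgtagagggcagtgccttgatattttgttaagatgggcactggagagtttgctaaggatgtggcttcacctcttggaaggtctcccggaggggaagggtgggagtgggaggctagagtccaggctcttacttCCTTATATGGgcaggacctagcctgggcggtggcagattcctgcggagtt
Vcl: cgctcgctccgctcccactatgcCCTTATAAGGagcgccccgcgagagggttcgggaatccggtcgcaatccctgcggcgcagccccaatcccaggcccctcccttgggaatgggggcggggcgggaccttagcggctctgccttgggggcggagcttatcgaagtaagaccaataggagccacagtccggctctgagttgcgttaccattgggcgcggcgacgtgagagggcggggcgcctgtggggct
The match is a description of the letters and not evidence of binding. In the counts, Myl9 was at 2573 CPM (2536 to 2611) in Actg2-positive cells, against 1149.7 CPM in other contractile and 504 CPM in all other cells. The log2 ratio of Actg2-positive over all other cells was 2.35 for Myl9, 1.43 for Vcl and 1.18 for Myl6.

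Of 28 genes of the contractile apparatus, 24 were measured, meaning a mean of at least 10 CPM over both groups, and 7 of them were at least 2-fold higher in Actg2-positive than in other contractile cells and none at least 2-fold lower, with a median log2 ratio of 0.70. Across all 7599 measured genes, 1.84% were at least 2-fold higher, 1.43% were at least 2-fold lower, and the median was -0.02. The genes of the rule were left out of this list. Mylk, the kinase that starts contraction, was at 273 CPM (261 to 286) in Actg2-positive cells, against 60.6 CPM (54.6 to 67.1) in other contractile cells, and was read in 76.9% and 36.4% of these cells. Thinned to 5000 UMIs per cell, Mylk was read in 58.8% of 481 Actg2-positive and 23.4% of 402 other contractile cells, after 26 shallower cells were left out of each group. Lmod1, which starts new actin filaments, was at 122 CPM (114 to 131) against 35.4 CPM (30.8 to 40.5).

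Calponin Cnn1 was at 247 CPM in Actg2-positive cells and 79.0 CPM in other contractile cells, a log2 ratio of 1.64. The tropomyosin gene Tpm2 was at 1549 against 722 CPM, and Synpo2 and the filament protein Nexn also lay past 2-fold at 26.2 against 12.3 CPM and 102 against 50.8 CPM. Other members of the apparatus were nearly level. Smtn (smoothelin, of contractile smooth muscle) was at 61.01 CPM in Actg2-positive and 64.1 CPM in other contractile cells, and desmin (Des), the intermediate filament of muscle, at 73.96 against 85.1 CPM. Tpm1, Cald1 (caldesmon) and Actn1 were under 2-fold with log2 ratios of 0.90, 0.82 and 0.68. Against all other cells, 18 of 24 measured genes of the list were at least 2-fold higher and none at least 2-fold lower (median log2 ratio 1.42), where 3.56% of all 7734 measured genes were higher and 4.54% lower (median 0.07).

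**Figure D1:**
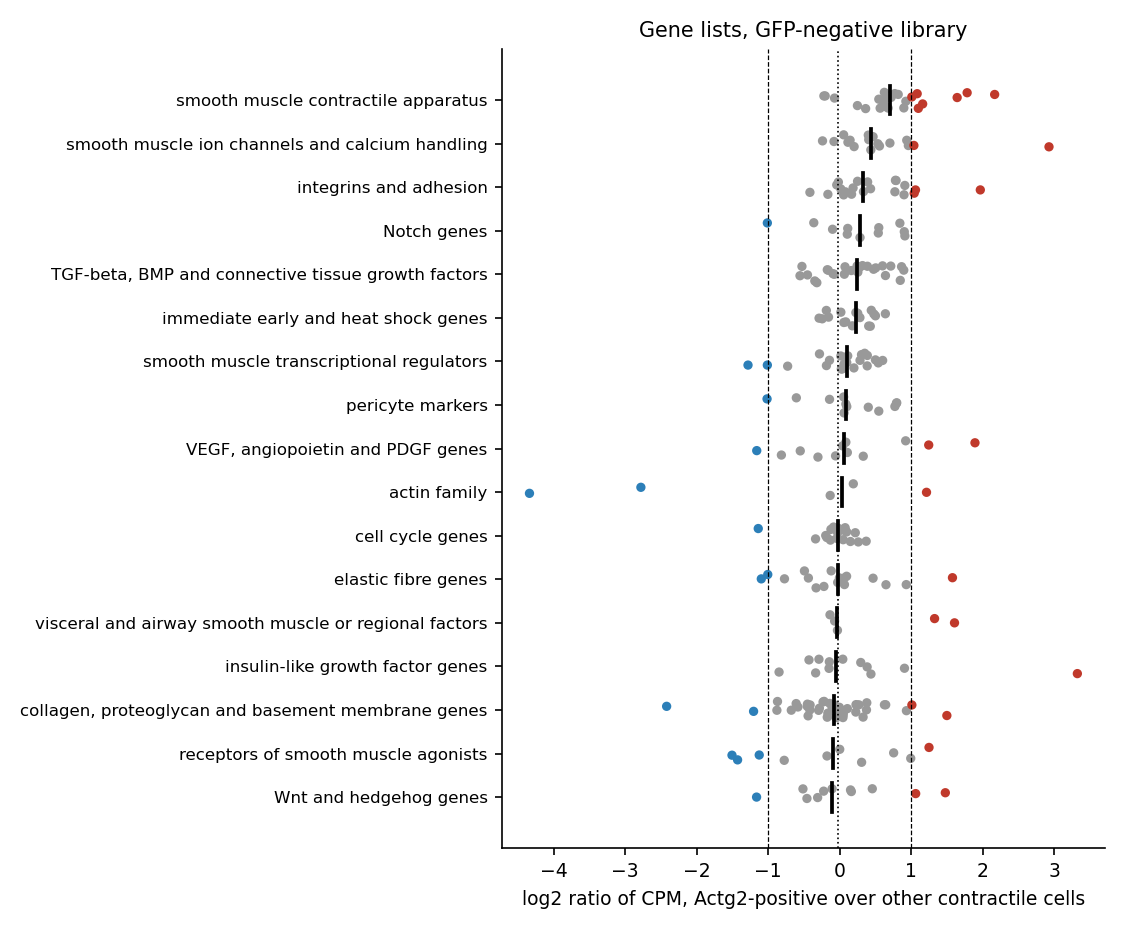
Log2 ratio of CPM in the 507 Actg2-positive cells over the 428 other contractile cells (x axis) for each measured gene of 17 lists (rows), with red points at least 2-fold higher and blue points at least 2-fold lower. Black bars are list medians, the dotted line is the median of all measured genes (-0.02), dashed lines mark 2-fold, and the height of a point within its row carries no value. Actg2 is counted in the actin median but not drawn; the contractile apparatus has the highest median, 0.70.

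Ion channels and calcium handling genes were closer to the background of all 7599 measured genes (1.84% higher, 1.43% lower). Of 24 genes, 18 were measured, and 2 were at least 2-fold higher with none lower (median log2 ratio 0.44). One of them, Kcnk3, encodes the potassium leak channel TASK-1, which holds the resting potential of smooth muscle cells. Kcnk3 was at 109 CPM (102 to 117) in Actg2-positive cells, against 14.3 CPM (11.4 to 17.6) in other contractile and 11.3 CPM (10.1 to 12.6) in all other cells. It was read in 50.5% of Actg2-positive cells, 12.4% of other contractile cells and 1.86% of leukocytes. Pln, the brake on the calcium pump of the sarcoplasmic reticulum, was low in both groups, at 14.2 against 6.88 CPM. The ATP-sensitive channel genes Kcnj8 and Abcc9, better known from pericytes, had log2 ratios of 0.06 and 0.40.

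By a rule of size, 13 genes are named here as highest and 10 as lowest in the comparison with other contractile cells, among genes at 50 CPM or more and in at least 10% of cells of the higher group. Igfbp2, which binds insulin-like growth factors, headed them at 519 CPM (502 to 536) in Actg2-positive cells, against 51.6 CPM (46.1 to 57.7) in other contractile and 53.3 CPM (50.7 to 56.02) in all other cells, a log2 ratio of 3.33 (3.16 to 3.50) over the other contractile cells, with its 95% counting interval in brackets. It was read in 47.3% of Actg2-positive cells, 17.5% of other contractile cells and 3.73% of leukocytes. Its level ran from 0 to 62.5 UMIs per 10000 among the Actg2-positive cells, and 267 of the 507 cells had none. Single cells outside the rule reached higher, up to 81.2 UMIs per 10000 among all other cells. None of the other 11 measured genes of the insulin-like growth factor list was past 2-fold in this comparison, with Igf1r at 77.6 against 57.2 CPM and Igfbp5 at 82.02 against 62.8 CPM.

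Figf, the gene of the vessel growth factor VEGF-D, was at 577 CPM (559 to 595) in Actg2-positive cells, against 155 CPM (145 to 165) in other contractile and 98.5 CPM (94.97 to 102) in all other cells. Among 12 measured genes of the VEGF, angiopoietin and PDGF list, Figf and Pdgfa were at least 2-fold higher and the angiopoietin receptor gene Tek at least 2-fold lower. The shares over all 7599 measured genes were 1.84% higher and 1.43% lower. Pdgfa, a growth factor for mesenchymal cells, was at 93.1 against 39.2 CPM. Nts, the precursor of the peptide neurotensin, was at 233 CPM in Actg2-positive and 48.3 CPM in other contractile cells. It was uneven among the cells, with 28.01% of Actg2-positive cells holding a UMI and 1 cell holding 119.

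Serpinb6b, a serine protease inhibitor gene, was a further gene of the named set, at 151 CPM in Actg2-positive and 21.1 CPM in other contractile cells. Parm1 was at 509.5 against 81.1 CPM, Cd93 at 199 against 49.7 CPM, and Prss23 at 195 against 49.5 CPM. Slc11a1, a metal transporter of macrophages, was at 64.3 CPM in Actg2-positive and 12.1 CPM in other contractile cells, with 84.2 CPM in leukocytes. Leukocyte markers summed to 43.0 CPM in Actg2-positive cells and 23.8 CPM in other contractile cells. Their part in the Slc11a1 value was not tested. The rest of the 13, besides Kcnk3 and Mylk above, were Gm2564, Crim1, Ccl11 and Rerg, with log2 ratios of 2.07, 2.02, 2.02 and 1.96.

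**Figure D2:**
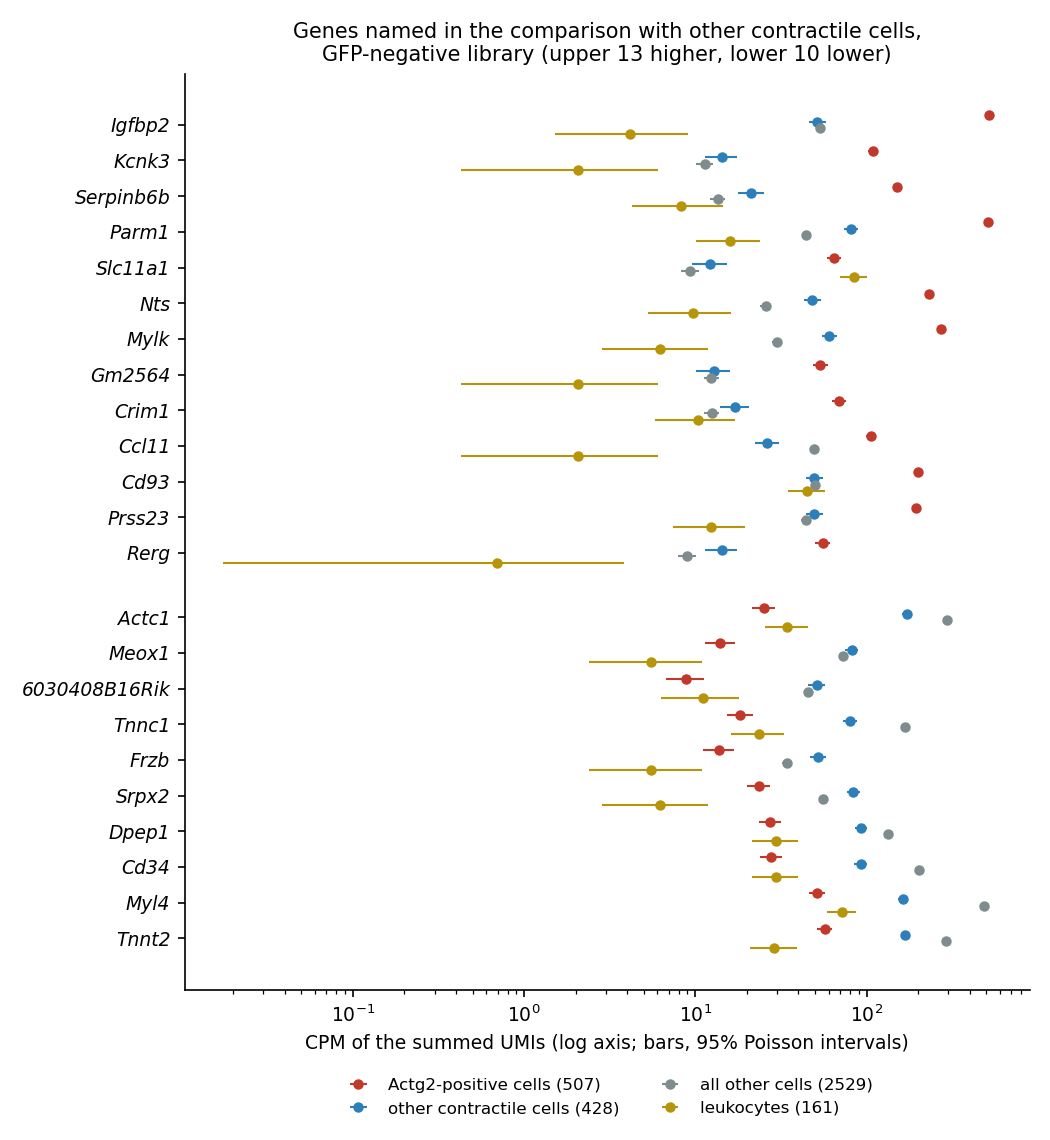
CPM (x axis, log scale) of the 13 highest and 10 lowest named genes of the comparison with other contractile cells, in 4 groups of cells of the GFP-negative library. Points are summed levels and bars are 95% Poisson intervals; Igfbp2 is at 519 CPM in Actg2-positive and 51.6 CPM in other contractile cells, and Slc11a1 is highest in leukocytes.

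The 10 lowest named genes included 4 of the cardiac sarcomere. Cardiac actin, Actc1, was at 25.04 CPM (21.5 to 29.05) in Actg2-positive cells, against 172 CPM (162 to 183) in other contractile cells. Tnnc1, Myl4 and Tnnt2, all of the cardiac sarcomere, were at 18.3 against 79.98 CPM, 51.2 against 164 CPM and 56.8 against 168 CPM. Cardiomyocyte markers summed to 192 CPM in Actg2-positive and 642 CPM in other contractile cells. Without cells that held 10 or more UMIs of cardiac and skeletal muscle genes, the log2 ratio turned to 0.31 for Actc1 and 0.077 for Tnnt2. With an Actg2 limit of 2 UMIs it was 0.43 for Actc1, 0.26 for Tnnc1 and 0.24 for Myl4, so these sarcomere genes had no settled direction.

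The homeobox gene Meox1 was at 13.96 CPM (11.3 to 17.03) in Actg2-positive cells, against 82.1 CPM (75.1 to 89.6) in other contractile cells. Frzb, a secreted Wnt antagonist, was at 13.7 against 52.1 CPM, Cd34, of progenitor and connective tissue cells, at 27.8 against 92.4 CPM, Dpep1 at 27.3 against 92.8 CPM and Srpx2 at 23.5 against 83.6 CPM. The remaining gene of the 10 was 6030408B16Rik, with a log2 ratio of -2.54.

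Transcription factors of smooth muscle showed no gene at least 2-fold higher among 21 measured and 2 at least 2-fold lower (1.84% and 1.43% of all 7599 measured genes). The lower genes were the cardiac T-box gene Tbx20, at 56.3 CPM (50.8 to 62.1) in Actg2-positive against 137 CPM (128 to 146) in other contractile cells, and the Notch target Hey1, at 27.1 against 54.6 CPM. Srf was at 16.5 against 12.6 CPM and the myocardin-related Mkl1 at 12.8 against 15.6 CPM. A list of 28 visceral, airway and regional factors held only 5 measured genes, of which Hoxa5 and Hoxb4 were at least 2-fold higher and none lower. Hoxb4, a position gene of the trunk, was at 35.5 CPM (31.2 to 40.3) in Actg2-positive cells, against 14.1 CPM (11.3 to 17.4) in other contractile and 18.7 CPM in all other cells. Hoxa5 was at 22.2 against 7.21 CPM in other contractile cells but at 27.8 CPM in all other cells. Hoxb5 did not reach the level to be measured, with 15.3 against 3.44 CPM.

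Receptors of contractile signals differed in both directions. Of 35 genes, 10 were measured, with 1 at least 2-fold higher and 3 at least 2-fold lower (1.84% and 1.43% of all 7599 measured genes). Ramp1, a partner of the receptor for the dilator peptide CGRP, was at 107 CPM (99.1 to 115) in Actg2-positive cells, against 44.7 CPM (39.6 to 50.4) in other contractile cells. Its relative Ramp2, a partner in the adrenomedullin receptor, was at 57.8 against 156 CPM, and the prostaglandin receptor Ptger4 and lysophosphatidic acid receptor Lpar1 were the other lower genes, at 20.9 against 45.6 CPM and 14.97 against 42.6 CPM. The endothelin receptor gene Ednra was at 76.6 against 38.4 CPM, just under 2-fold.

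Matrix genes were mostly level between the groups. Of 41 measured collagen, proteoglycan and basement membrane genes, 2 were at least 2-fold higher and 2 at least 2-fold lower, with a median log2 ratio of -0.08. Over all 7599 measured genes, 1.84% were higher and 1.43% lower. Lama5, a laminin chain of basement membranes, was at 45.6 CPM (40.7 to 50.9) in Actg2-positive cells, against 16.1 CPM (13.04 to 19.6) in other contractile and 6.65 CPM (5.75 to 7.65) in all other cells, and Thbs1 (thrombospondin) was the other higher gene at 262 against 129.8 CPM. The lower genes were Col8a1, at 5.18 against 28.03 CPM, and Ogn, at 115 against 265 CPM. Col1a1 was nearly level at 4544 CPM in Actg2-positive cells and 4719 CPM in other contractile cells, with 553 CPM in leukocytes. Of 17 measured elastic fibre genes, Emilin2 was at least 2-fold higher and Fbln2 and Mfap5 at least 2-fold lower. Elastin, Eln, was at 17264 CPM (17167 to 17362) in Actg2-positive cells, against 12479 CPM (12390.5 to 12568) in other contractile and 5917 CPM (5889 to 5944) in all other cells.

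The remaining lists held few genes past 2-fold against other contractile cells, where 1.84% of all 7599 measured genes were higher and 1.43% lower. Adhesion genes had 3 of 21 measured genes at least 2-fold higher, the integrin Itga4 (42.6 against 10.8 CPM) and the caveolins Cav1 (330.0 against 158 CPM) and Cav2 (52.8 against 25.6 CPM), and none lower. Pericyte markers had none of 12 higher and Higd1b lower, while Rgs5, the G-protein regulator that marks pericytes, was at 1730.1 CPM in Actg2-positive and 994 CPM in other contractile cells and was read in 94.3% of the Actg2-positive cells. Notch genes had none of 11 higher and 1 lower, Hey1. Wnt and hedgehog genes had Wnt5a and Sfrp4 higher and Sfrp2 lower among 11. Cell cycle genes had none of 22 higher and the inhibitor Cdkn1c lower, at 118 against 260.1 CPM. No gene of 25 measured in the TGF-beta and BMP list and none of 17 immediate early and heat shock genes was past 2-fold either way.

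Against all other cells, 8 of the 13 highest named genes were also in the named set of the comparison with other contractile cells. The 5 others were Mustn1, a small muscle nuclear protein gene, at 663 CPM in Actg2-positive against 60.4 CPM in all other cells, Lmod1, Cnn1, Wisp2 (219.6 against 34.8 CPM) and Grp, the precursor of gastrin-releasing peptide (85.2 against 10.95 CPM). Over all 7734 measured genes of this comparison, 3.56% were at least 2-fold higher and 4.54% lower. Notch genes had 6 of 11 measured genes at least 2-fold higher and none lower (median log2 ratio 1.47), among them the receptor Notch3, at 150.1 against 45.8 CPM, and its ligand Jag1, at 58.4 against 16.04 CPM. Pericyte markers had 6 of 12 higher. Insulin-like growth factor genes had 4 of 12 lower, with Igf1 at 50.4 against 191 CPM and Igf2 at 63.3 against 197 CPM, and 1 higher, Igfbp2. The 9 lowest named genes, such as the leukocyte gene Cd52 and the endothelial gene Emcn, are genes of other cell types in the library.

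Over the 507 cells, the genes whose level followed Actg2 most closely were Acta2 and Tagln (Spearman rho 0.65 each), Tpm2 (0.63), Myl9 (0.58) and Tpm1 (0.57), among 4805 genes read in at least 25% of the cells. The median over the 4805 genes was -0.02. Actg2, Acta2 and Tagln are genes of the rule, so the cells were cut on the same values that these rho compare. Tpm2, Myl9 and Tpm1 had no part in the choice. Dermatopontin, Dpt (-0.41), Cygb (-0.37) and Col3a1 (-0.33) were at the low end. All genes were read in the same cells of 1 library, and rho with total UMIs was -0.10.

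The 507 cells were not uniform. Limits on a few genes, chosen after the values were seen, split off 4 sets, of which 37 cells met more than 1, and 152 cells (29.98%) met none. The largest set had at least 2 UMIs of Igfbp2 and numbered 205 cells (40.4%), against 28 of the 428 other contractile cells (6.54%) and 148 of all 2529 other cells (5.85%). The 205 cells held 76.2% of the Figf UMIs, 86.1% of the Serpinb6b UMIs and 75.3% of the Parm1 UMIs of all Actg2-positive cells. These cells were deeper, with a median of 14544 UMIs against 13105 in all Actg2-positive cells, so their shares of UMIs partly follow depth. In CPM, which allow for depth, Figf was at 999 in the 205 cells and 246 in the other 302. Serpinb6b was at 296 against 37.5 CPM and Parm1 at 872 against 225 CPM. Among the genes leading this set were the proteoglycan Podn (73.2 against 12.3 CPM), the activin antagonist Fst (81.1 against 23.1 CPM), Igfbp3 (320.4 against 94.3 CPM) and the stretch-activated channel Piezo2 (54.3 against 15.9 CPM). Lower in it were the lipase Lpl (12.1 against 117 CPM), the cardiac transcription factor Gata4 (7.52 against 53.98 CPM) and Sparcl1 (45.8 against 397 CPM). Thinned to 5000 UMIs, Figf was read in 85.2% of Actg2-positive cells with Igfbp2 and 42.8% of those without, and Serpinb6b in 60.7% and 12.6%.

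A second set had at least 3 UMIs of Grp and numbered 42 cells (8.28%), 17 of them also in the first set, against 11 other contractile cells (2.57%). Eln was at 39671 CPM in these cells and 15552 CPM in the other 465. The elastic fibre gene Fbln5 (2298 against 355 CPM), the chemokine Cxcl12 (748 against 107 CPM), the protease inhibitor Timp4 (107 against 3.25 CPM) and the cadherin Cdh13 (219 against 7.74 CPM) were higher too. Mustn1, in turn, was at 66.9 CPM in the set and 709 CPM in the rest.

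The third set had fewer than 30 UMIs of Col1a1, Col1a2 and Col3a1 per 10000 and numbered 52 cells (10.3%), against 35 other contractile cells (8.18%). Their low collagen is built into the limit, and they had much muscle RNA. Acta2 was at 11122 CPM in them and 6077 CPM in the other 455, Myh11 at 589 against 155 CPM, Des at 281 against 53.5 CPM and the muscle transcription factor Mef2c at 810 against 89.7 CPM. Within the Actg2-positive cells, some genes were almost confined to the set. Of the UMIs in all Actg2-positive cells, the set held 70 of 70 for Rergl, 76 of 79 for Olfr558 and 105 of 109 for Tesc. For the nuclear receptor partner Nrip2 it held 198 of 216. Cells outside the rule are not in these counts, and Nrip2 was under 2-fold between Actg2-positive and other contractile cells. Prph (peripherin) was less even, since 1 cell held 151 of its 347 UMIs.

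The fourth set had at least 2 UMIs of Tcf21, a transcription factor of cardiac fibroblasts, and numbered 94 cells (18.5%), against 200 of the 428 other contractile cells (46.7%). Tbx20 (151 against 28.3 CPM), the retinoic acid enzyme Aldh1a2 (70.6 against 8.02 CPM) and Sox9 (99.0 against 22.2 CPM) were higher in it than in the other 413 Actg2-positive cells, and Myh11 was lower (46.0 against 238 CPM). The 152 cells of no set still carried contractile genes, with Actg2 at 1002 CPM, Cnn1 at 209 CPM, Mylk at 203 CPM and Lmod1 at 98.9 CPM. By another measure, 73 Actg2-positive cells (14.4%) and 65 other contractile cells (15.2%) had at least 4 UMIs of 5 cycling genes, shares whose intervals overlapped (11.5% to 17.8% and 11.9% to 18.9%).

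**Figure D3:**
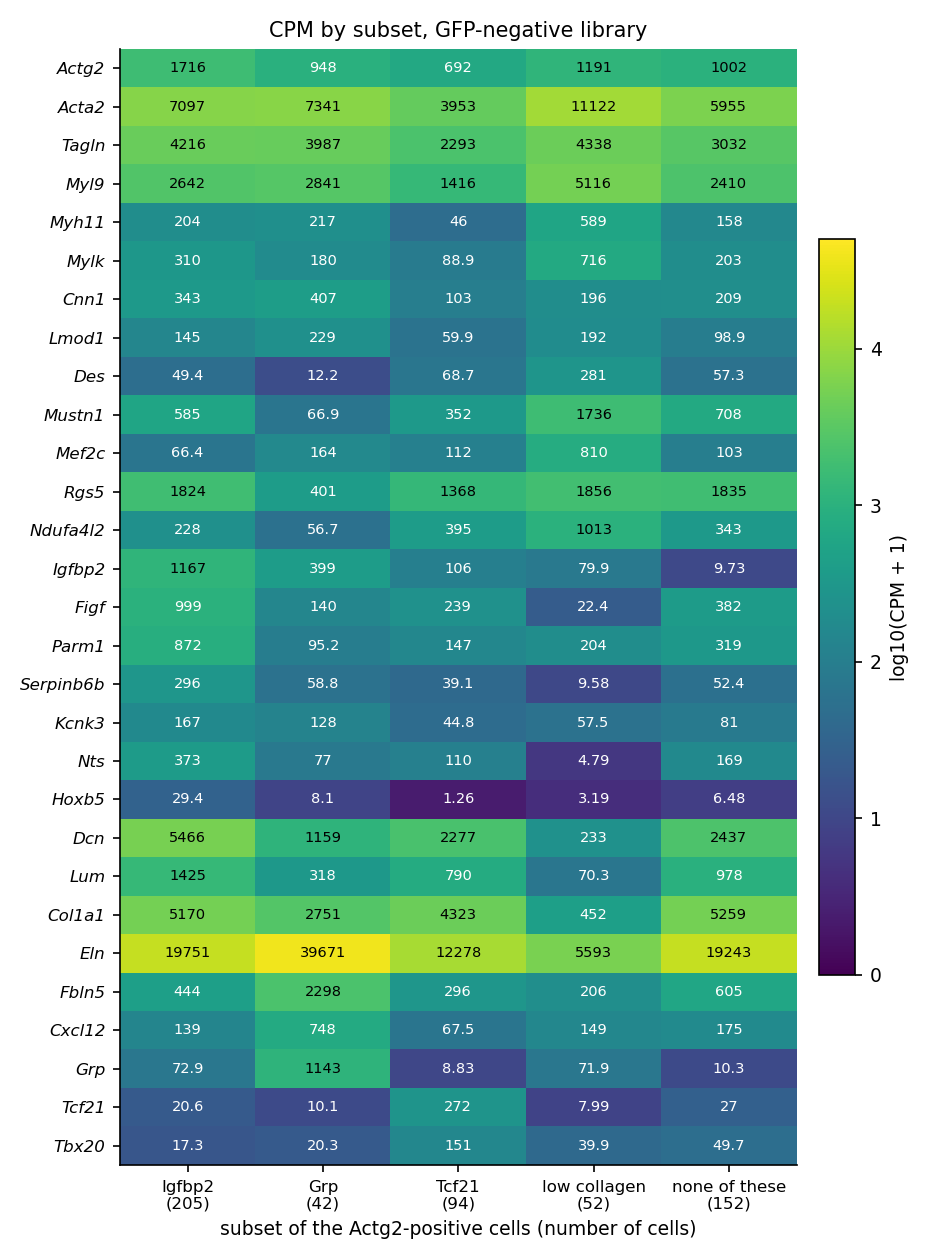
CPM of 29 genes (rows) in 4 sets of the Actg2-positive cells and in the 152 cells of none (columns; 37 cells are in more than 1 set), with colour on a log10(CPM + 1) scale and the CPM printed in each field. Figf, Parm1 and Serpinb6b stand out in the Igfbp2 set, Eln and Fbln5 in the Grp set, and Myh11 and Mef2c in the low-collagen set.

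The same rule was applied to the RA library, whose counts do not enter the rule for the cells of the GFP-negative library, although the rule was set with earlier results of all 3 libraries known. It gave 95 of 1297 cells (7.32%, interval 5.97% to 8.88%), with 260 other contractile cells (20.05%). The GFP-positive library gave 7 of 3300 cells (0.212%), too few to describe. The gate sets the shares of a sorted library, so these do not give the makeup of the tissue. Actg2 in the 95 RA cells ranged from 3 to 78 UMIs with a median of 9, and 4.13% of RA leukocytes had a UMI. Of the 13 genes named as highest against other contractile cells, 11 were measured in RA. Of these, 9 were at least 2-fold higher in RA too, where 1.51% of all 7544 measured genes were higher and 0.862% lower. The others were Prss23, under 2-fold, and Ccl11, which was lower in Actg2-positive RA cells (7.04 against 27.3 CPM). Against all other RA cells, 11 of 11 measured named genes were at least 2-fold higher, where 3.48% of all 7698 measured genes were higher and 5.04% lower.

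The RA count against other contractile cells rested largely on 3 cells, and the count against all other RA cells rested on them in smaller part. Only 3 of the 95 RA cells (3.16%) had a UMI of Igfbp2, and those 3 held 66, at 17 to 31 UMIs each. They also held 128 of 165 Figf UMIs, 41 of 44 Serpinb6b UMIs, 95 of 199 Parm1 UMIs and 149 of 348 Nts UMIs, the last all in 1 cell. Without them, 3 of the 11 genes stayed at least 2-fold higher than in other contractile RA cells, and 7 of 11 than in all other RA cells. Against all other RA cells, Serpinb6b (3 UMIs left) turned to a log2 ratio of -1.64 (-4.15 to -0.27) and Wisp2 (1 UMI left) to -2.81 (-8.71 to -0.89), in place of 1.96 and 2.07. Against other contractile RA cells, Mylk kept a log2 ratio of 2.20, Cd93 of 2.42 and Nts of 1.82, while Parm1 was at 0.92, Kcnk3 at 0.57 and Serpinb6b at 0.37. Since Igfbp2 defined the 3 cells, its own loss is built into this step. Cells with Igfbp2 were taken out of the Actg2-positive side only. All other RA cells kept 15 cells with at least 2 Igfbp2 UMIs, and the other contractile RA cells kept 2. Lower ratios of genes that go with Igfbp2, such as Serpinb6b and Wisp2, are thus partly built in too.

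**Figure D4:**
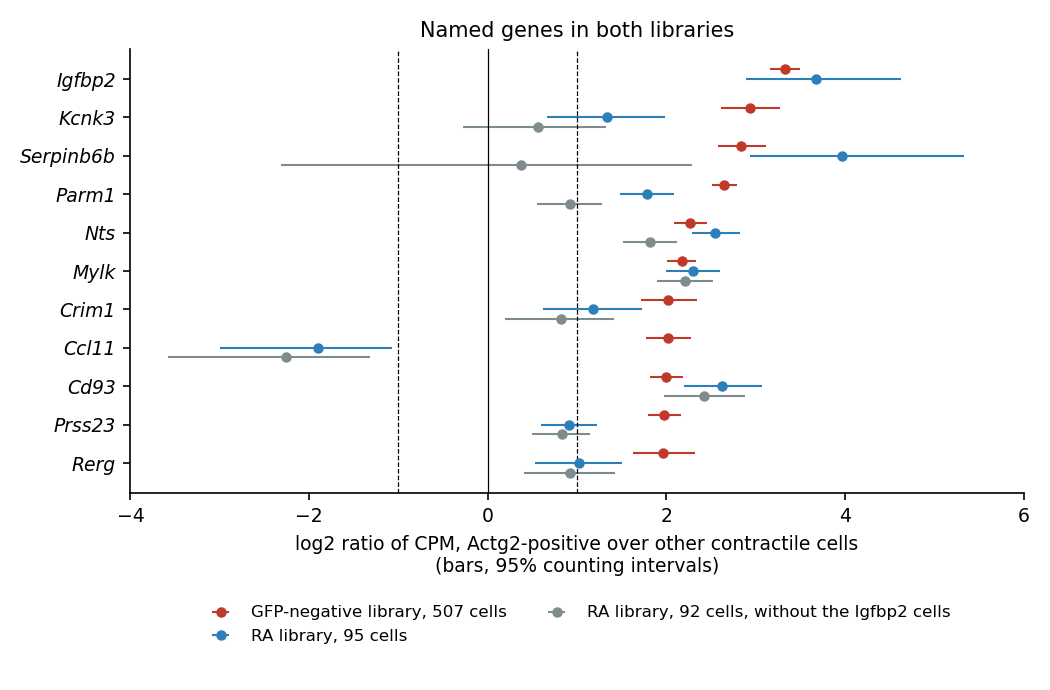
Log2 ratio of CPM in Actg2-positive over other contractile cells (x axis) for the 11 named genes measured in RA, in the GFP-negative library, in RA and in RA without the 3 cells with Igfbp2; bars are 95% counting intervals. Mylk, Nts and Cd93 lie past 2-fold (dashed lines) in all 3 series, and Igfbp2 is not drawn without the 3 cells, since it had 0 UMIs in the other 92.

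Contractile genes were also compared in RA. Of 23 measured genes of the list, 6 were at least 2-fold higher in the 95 RA cells than in the other contractile RA cells and none lower, with 17 between (median log2 ratio 0.43). Across all 7544 measured genes of this comparison, 1.51% were at least 2-fold higher and 0.862% lower, and the median was 0.02. Those past 2-fold were Cnn1, Myl9, Mylk, Lmod1, Ppp1r12b and Nexn. Myl9 was at 1674 CPM (1611 to 1739.8) in Actg2-positive RA cells, against 761 CPM (736 to 787) in other contractile RA cells. Lmod1 was at 29.4 against 4.30 CPM. Of the 10 genes named as lowest, 10 were lower in RA as well, 7 of them at least 2-fold, where 0.862% of all measured genes were. These 7 included Actc1, Tnnc1, Myl4 and Tnnt2, which had no settled direction in the GFP-negative library. Cardiomyocyte markers summed to 477 CPM in Actg2-positive RA cells and 1464 CPM in other contractile RA cells. Their part in these lower values was not tested.

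The sets made up different shares of the Actg2-positive cells in the libraries. The Igfbp2 set was 40.4% in the GFP-negative library (36.1% to 44.9%) and 3.16% in RA (0.656% to 8.95%). The Grp set was 8.28% in the GFP-negative library and 0 of 95 in RA, which allows up to 3.16% by the limit of 3 cells. Cells with Tcf21 made up 18.5% (15.3% to 22.2%) in the GFP-negative library and 73.7% (63.6% to 82.2%) in RA, while among other contractile cells they were 46.7% in the GFP-negative library and 91.9% in RA. The low-collagen set was 10.3% (7.76% to 13.2%) in the GFP-negative library and 16.8% (9.94% to 25.9%) in RA, with overlapping intervals. Its genes recurred there. Of the UMIs of the Actg2-positive RA cells, 16 low-collagen cells held 8 of 8 for Rergl, 20 of 20 for Olfr558 and 64 of 68 for Nrip2. These 16 cells held 80.9% of the Myh11 UMIs of the Actg2-positive RA cells, at 457 CPM against 15.4 CPM in the other 79. The limits came from the GFP-negative library, and the RA cells were deeper, with a median of 16230 UMIs.

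**Figure D5:**
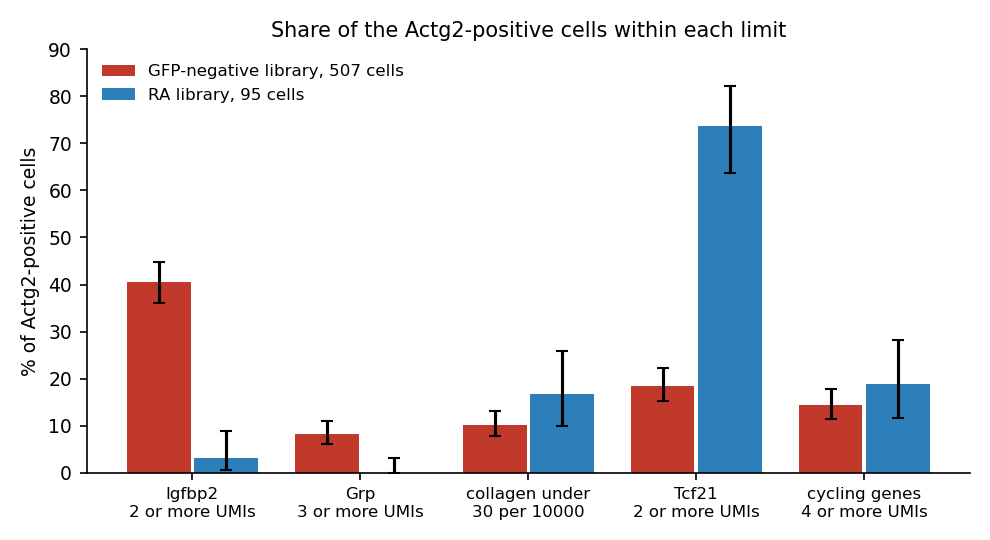
Share of the Actg2-positive cells (y axis, percent) that met each limit, in the GFP-negative and the RA library; bars start at 0 and error bars are 95% Clopper-Pearson intervals, or for a share of 0 the limit of 3 cells. The Igfbp2 set is 40.4% in the GFP-negative and 3.16% in the RA library, and cells with Tcf21 are 18.5% and 73.7%.

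The Actg2-positive cells were also compared between the libraries. Of 17 measured elastic fibre genes, 8 were at least 2-fold higher in GFP-negative than in RA Actg2-positive cells and none lower, where 4.32% of all 7622 measured genes were higher and 3.41% lower (median -0.13). Eln was at 17264 CPM in GFP-negative and 1183 CPM in RA Actg2-positive cells, but it was also at 5917 CPM in GFP-negative and 754 CPM in RA other cells. Between all other cells of the libraries, 5 of 17 were at least 2-fold higher in the GFP-negative library (background 2.64% higher and 2.14% lower of 7772 genes). Between the other contractile cells, 7 of 16 were (background 2.63% higher and 1.26% lower of 7569 genes). Fbln5 was at 493 CPM (477 to 509.8) in GFP-negative and 26.9 CPM (19.4 to 36.3) in RA Actg2-positive cells, with 301 and 61.5 CPM in the other cells. Hoxb4 had 35.5 CPM in GFP-negative and 2.56 CPM in RA Actg2-positive cells, the last from only 4 UMIs, and 18.7 and 4.86 CPM in the other cells. Of 11 measured Wnt and hedgehog genes, 6 were at least 2-fold higher in the GFP-negative Actg2-positive cells and 1 lower, while between all other cells 3 of 10 were higher and none lower. Of 10 measured receptors of contractile signals, 4 were at least 2-fold higher and 3 lower in Actg2-positive cells, and 3 of 14 were higher and 2 lower between all other cells.

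Lower in the GFP-negative cells were Tbx20, at 56.3 CPM in GFP-negative against 204 CPM in RA Actg2-positive cells (93.8 and 185 CPM in the other cells), and 3 of 12 pericyte markers, Cox4i2, Ndufa4l2 and Higd1b, with Ndufa4l2 at 364 CPM in GFP-negative against 728 CPM in RA Actg2-positive cells. Over all 7622 genes measured between the Actg2-positive cells, 3.41% were lower in the GFP-negative library. Immediate early and heat shock genes, which tissue dissociation can induce, were at least 2-fold higher in the GFP-negative library for 5 of 17 genes in Actg2-positive cells, 8 of 17 in other contractile cells and 2 of 17 in all other cells. The shares over all measured genes were 4.32%, 2.63% and 2.64% in the same order of groups. Sorting, dissection and library were joined in these 2 libraries, so their parts in these differences cannot be told apart.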

How the data were processed

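Single-cell RNA was measured in 3 10x Genomics libraries, 1 per group. The authors deposited whole-number UMI counts for each gene in each barcode, made with Cell Ranger against mm9 per the submitters' processing notes, which give no version. The 3 files held 3276, 3346 and 1450 barcodes (GFP-negative, GFP-positive, RA) with 28001 features each, and 3036, 3300 and 1297 barcodes had at least 500 genes. A gene table held 27645 of 27998 IDs (98.7%).

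UMIs were summed per group and given as CPM with 95% exact Poisson intervals. Log2 ratios had 0.5 UMIs added to each sum and exact conditional binomial intervals, and shares have Clopper-Pearson intervals. Intervals and limits from a count of 0 (3 counts) cover counting error only. With 1 library per group there was no test and no p-value. The ratio calculation was tested on simulated data. A gene was measured at a mean of 10 CPM or more over both groups. Named genes were the 15 highest and 10 lowest ratios among genes with at least 50 CPM and 10% of cells in the higher group, without the genes of the rule, mitochondrial and haemoglobin genes. Of these, 2 of the highest in each comparison and 1 of the lowest against all other cells are not reported here. The members, the 17 lists (389 genes) and the 12 marker sets were chosen with earlier results of these data known. Cavin1 and Ltbp4 did not match exactly 1 ID and have no value here. For shares, cells were thinned to 5000 UMIs with seed 0. No doublet caller was run and doublets were not removed. An alternative leaves out cells above 2 times the median UMIs. The replicate spread is unknown, and the precision given by depth is that of the intervals. Python 3.11.15, numpy 2.4.6, scipy 1.17.1, pandas 2.3.3 and matplotlib 3.10.9 were used.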

Additional observations from a re-analysis of the deposited data

How the results depend on the processing

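With an Actg2 limit of 2 UMIs the rule took 593 cells of the GFP-negative library and 117 of RA, and with a limit of 6 it took 383 in the GFP-negative library, in place of 507 and 95. Against all other cells, 275 genes were at least 2-fold higher and 351 lower. At a mean of 50 CPM or more these were 123 and 87, and with no limit on level 1452 and 2883. Against other contractile cells, 140 were higher and 109 lower, with 43 and 31 at a mean of 50 CPM or more, 1820 and 1789 with no limit on level, and 58 lower with an Actg2 limit of 2. The cause of this last change was not tested, and Actc1 (0.43), Tnnc1 (0.26) and Myl4 (0.24) changed sign under it. Actc1 (0.31) and Tnnt2 (0.077) changed sign without cells of 10 or more cardiac and skeletal muscle UMIs. That alternative, the one without leukocyte, endothelial and erythroid cells among the other cells, and the one without the 3 RA cells with Igfbp2 were chosen after seeing the data. In RA without those 3 cells, 7 of 11 and 3 of 11 named genes were at least 2-fold higher than in all other and other contractile cells, in place of 11 and 9. The 3 cells were taken from the Actg2-positive side only, and cells with Igfbp2 stayed in the comparison groups. For the 23 named genes against other contractile cells, 299 values under 13 settings gave 248 within the interval, 46 outside it and 5 of changed sign. Those under 2-fold, 9 values, were of Actc1, Myl4, Tnnc1 and Tnnt2. Against all other cells, 242 values under 11 settings gave no change of sign and 2 under 2-fold (Cd14 and Il1b). The median log2 ratio of the contractile list lay between 0.63 and 0.77 over 5 settings. No paired analysis was possible because each group had 1 library and the labels give no shared replicates. Depth limits genes below about 10 CPM, most of all in the 95 RA cells.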
